A study of Mus musculus with 9 samples.

Results

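The genes described here encode receptors that alveolar macrophages, which live in the air spaces of the lung, use to bind microbes, sugars and modified lipids, and an adaptor that some of these receptors signal through. They were chosen by name: Clec7a, Clec4n, Clec4e and Clec4d (C-type lectins), Mrc1 (the mannose receptor), Marco, Msr1 and Olr1 (scavenger receptors) and Card9 (the adaptor). All 9 were found among the 12003 genes of the table after Ensembl identifiers were matched to symbols. Poly(A) RNA was sequenced from untreated C57BL/6 mice 8 to 12 weeks old, with 3 pools per genotype and 5 to 7 mice in each pool. Floxed controls were Vhl(flox/flox) / CD11c (+/+) and carried no Cre. Cre controls were Vhl(+/+) / CD11c (cre/+), and knockouts were Vhl(flox/flox) / CD11c (cre/+), so knockouts share the floxed alleles with the floxed controls and the Cre transgene with the Cre controls. Cells from airway lavage were enriched with beads against CD11c (integrin alpha X). CD11c is carried by alveolar macrophages and by dendritic cells, so Cre driven by its promoter is not limited to macrophages. VHL is the part of a ubiquitin ligase that binds hypoxia-inducible factors (HIF) for degradation, and the series title names differentiation, self-renewal and function of these macrophages as the questions asked.

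Dectin-1 (the product of Clec7a) binds beta-glucans of fungal walls and signals through a motif in its own tail. Dectin-2 (Clec4n), Mincle (Clec4e) and MCL (Clec4d) bind fungal mannans or glycolipids and signal through the Fc receptor gamma chain. These routes converge on the kinase SYK and on a complex of CARD9, BCL10 and MALT1, which activates NF-kappaB. The scavenger receptors and the mannose receptor serve mainly in uptake: MARCO and MSR1 are class A scavenger receptors that bind bacteria and particles, MRC1 takes up mannose-bearing glycoproteins, and OLR1 (LOX-1) binds oxidized low-density lipoprotein.

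Sequences before the transcription start are shown for 3 genes: Clec7a, the most abundant of the 4 lectins, Clec4e, the member with both HIF-type core letters, and Marco, which was higher in the knockout. They are 150 bases ending at the base before the RefSeq start (GRCm38.p6, minus strand, written 5′ to 3′ in the direction of transcription), with matches to searched motifs in capitals.
Clec7a, chr6:129472780-129472929: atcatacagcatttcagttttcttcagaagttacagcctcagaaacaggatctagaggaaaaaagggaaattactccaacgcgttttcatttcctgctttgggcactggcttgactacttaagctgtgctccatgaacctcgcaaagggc
Clec4e, chr6:123289872-123290021: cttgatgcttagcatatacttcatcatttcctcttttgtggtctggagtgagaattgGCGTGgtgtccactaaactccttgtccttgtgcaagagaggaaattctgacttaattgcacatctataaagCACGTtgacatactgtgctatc
Marco, chr1:120505025-120505174: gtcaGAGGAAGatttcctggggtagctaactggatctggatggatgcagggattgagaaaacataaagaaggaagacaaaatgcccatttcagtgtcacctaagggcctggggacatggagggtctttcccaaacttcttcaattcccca
RefSeq promoter entries matched 7 of the 9 genes, all but Clec4n and Msr1, with a pair of nearby starts for Clec7a, and 250 bases before each start were searched on both strands. The letters searched were ACGTG and GCGTG (the core of HIF binding motifs), GAGGAAG (a PU.1-type motif) and TGANTCA (AP-1). Clec4e held 1 ACGTG, seen as CACGT on the printed strand, and 1 GCGTG. Neither core occurred in the windows of the other 6 matched genes. Over all 32851 promoter windows of this length, 38.6% held at least 1 of these cores. GAGGAAG, found in 10.6% of all windows, occurred 1 time each in Marco and Clec4d and 2 times in Mrc1. TGANTCA, found in 6.75% of all windows, occurred 1 time in Olr1, and the windows of Clec7a and Card9 held none of the motifs. A match is a description of the letters, and no binding was measured.

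Vhl itself was at 18.1 ± 3.05 normalized reads in floxed controls, 23.7 ± 1.69 in Cre controls and 2.23 ± 0.261 in knockouts (mean ± SD, n = 3 pools each). A normalized read is a read count scaled to library size (CPM), with no correction for gene length. Summed over the 12003 genes of the table, libraries held 18201116 to 25861174 recovered reads. The 9 genes had from 539 reads (Clec4d) to 57564 reads (Mrc1) in a library, so counting error is small beside the spread between pools. Log2 fold changes come from limma on log2(value + 1), so that changes of genes at low levels appear smaller than they are, and a gene was called when its p-value, adjusted over all 12003 genes, was under 0.05. Alveolar macrophage markers were present throughout: all 22 on a list of such genes were measured, with a sum of 33283 to 38502 in controls and 42615 to 55527 in knockouts. Of these, 6 were higher in the knockout, among them the lipid carrier gene Fabp4 (89.5 to 199), and 5 were lower, among them Siglecf (502 to 334). Over all genes, 19.7% were higher and 20.2% lower. The median log2 difference over the 22 markers was 0.05, so the higher sum does not stand for a rise of most of them.

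The 4 lectins and Card9 were lower in the knockout and Marco was higher, while Mrc1, Msr1 and Olr1 did not pass the test against both controls together. Of the 9 genes, 6 were called against both controls, 1 higher and 5 lower. Over the whole table, 39.8% of genes were called, 19.7% higher and 20.2% lower, so many genes differ in this comparison. The median log2 fold change was -0.37 over the 9 genes and 0.00 over all genes. Summed over Clec7a, Clec4n, Clec4e and Clec4d, controls held 1692 to 2326 normalized reads and knockouts 731 to 862. Summed over Marco, Msr1, Mrc1 and Olr1, controls held 2484 to 3426 and knockouts 3466 to 3796. All knockout libraries lay below all 6 controls for Clec7a, Clec4n, Clec4e and Card9 (18.5% of all genes did so), and above them for Marco (19.3% of all genes did so).

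**Figure D1:**
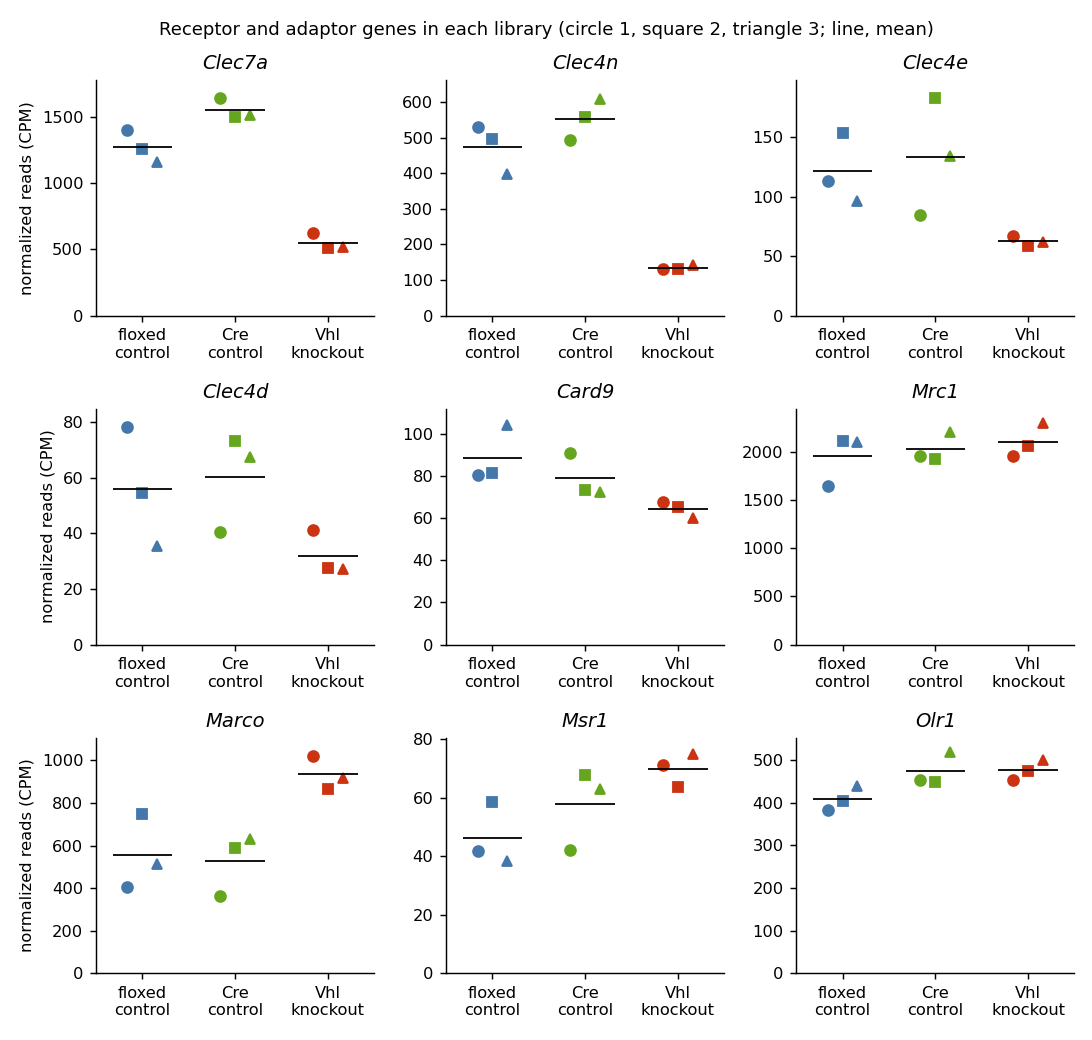
Normalized reads (CPM, linear axis from 0) of each gene in the 9 libraries, by genotype; circle, square and triangle are pools 1, 2 and 3, and the line is the mean of the genotype. For Clec7a and Clec4n the knockout pools lie far below every control pool, for Marco they lie above, for Mrc1 the genotypes overlap, and for Olr1 the knockout pools lie among the Cre controls and above the floxed controls.

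Clec7a, which encodes dectin-1 (ENSMUSG00000079293, chr6:129461591-129472779, minus strand, GRCm38), read 1407, 1258 and 1162 in floxed controls. Cre controls read 1642, 1503 and 1517, and knockouts 624, 512 and 519.8. The lowest control library thus held more than the highest knockout library, and every Cre control lay above every floxed control. The mean fell from 1415 ± 178 (n = 6) to 552 ± 62.6 (n = 3), to 39.0% of controls. On the log2 scale it fell by 1.35 (SE 0.0860, limma adjusted p = 1.51e-06), and by 1.21 and 1.496 against floxed and Cre controls. Between the controls the log2 difference was 0.29, with an adjusted p of 0.573. In bulk RNA, fewer cells that express a gene and less RNA per cell cannot be told apart, here and for every gene below.

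Clec4n, which encodes dectin-2 (ENSMUSG00000023349, chr6:123229843-123247021, plus strand), had the largest fall among the 9 genes. It read 530.5, 496 and 398 in floxed controls, 493, 558 and 608 in Cre controls, and 130.2, 132 and 142 in knockouts. The knockout pools lay close together and far under the lowest control. The mean fell from 514 ± 70.9 to 135 ± 6.24, to 26.2% of controls, with a log2 fold change of -1.91 (SE 0.0952, limma adjusted p = 2.70e-07). Against floxed controls it was -1.80 and against Cre controls -2.02.

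Clec4e, which encodes Mincle (ENSMUSG00000030142, chr6:123281789-123289870, minus strand), read 114, 154 and 96.9 in floxed controls and 84.6, 183 and 134 in Cre controls. Knockouts read 66.8, 58.7 and 61.8, all under the lowest control, although the controls themselves spread widely. The mean fell from 128 ± 36.9 to 62.4 ± 4.08, a log2 fold change of -0.97 (SE 0.213, limma adjusted p = 0.00496). It was called against each control, at -0.93 (adjusted p = 0.0156) and -1.02 (adjusted p = 0.010), and the call against floxed controls was lost without floxed control 2 or without knockout 2 (adjusted p = 0.0593 and 0.0533).

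Clec4d, which encodes MCL, the partner of Mincle (ENSMUSG00000030144, chr6:123262111-123275265, plus strand), read 78.2, 54.5 and 35.4 in floxed controls and 40.6, 73.2 and 67.3 in Cre controls. Knockouts read 41.1, 27.5 and 27.1, so the highest knockout library overlapped the lowest control of each genotype. The mean was 58.2 ± 17.6 in controls and 31.9 ± 7.97 in knockouts. The log2 fold change of -0.82 (SE 0.257) passed the test against both controls (limma adjusted p = 0.0290) and against Cre controls (-0.88, adjusted p = 0.0435), but not against floxed controls (-0.75, adjusted p = 0.0770). The call against both controls was lost without floxed control 2 (adjusted p = 0.0530), Cre control 2 (0.0600), Cre control 3 (0.0599), knockout 2 (0.110) or knockout 3 (0.115), and the call against Cre controls was lost without the same libraries (adjusted p from 0.0614 to 0.145). Neutrophils are known to carry Clec4d and Clec4e. The sum of 7 neutrophil markers was highest in library 1 of each genotype, at 1155, 569 and 644 normalized reads against 196 to 756 in the others, and Clec4d was highest in library 1 among floxed controls and knockouts but lowest there among Cre controls. Leaving out all libraries numbered 1, an alternative chosen after seeing the data, Clec4d was at -1.0 against both controls (adjusted p = 0.000677) and Clec4e at -1.19 (adjusted p = 0.000777). This choice did not divide the libraries by neutrophil markers. Floxed control 2, which was kept, summed to 756, above Cre control 1 (569) and knockout 1 (644), which were left out. The part of neutrophil RNA in these levels was not tested.

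Card9, which encodes the adaptor downstream of SYK (ENSMUSG00000026928, chr2:26352176-26360918, minus strand), had the smallest fall of the 5 genes called lower. It read 80.5, 81.4 and 104 in floxed controls, 90.7, 73.5 and 72.4 in Cre controls, and 67.4, 65.4 and 60.0 in knockouts. All knockout pools lay under all controls, by a small margin. The mean fell from 83.8 ± 12.1 to 64.3 ± 3.85, a log2 fold change of -0.37 (SE 0.101, limma adjusted p = 0.0153), and without knockout 3 the call was lost (adjusted p = 0.0748). It was called against floxed controls (-0.45, adjusted p = 0.0136; 0.0554 without knockout 3) and not against Cre controls (-0.29, adjusted p = 0.0855). The gene overlaps an unmeasured gene, Gm13562, on the opposite strand, and the sources used here do not give the strand setting of the counting, so reads of the pair cannot be told apart. The same limit holds for Fyn, Ptpn6, Il1b, Ly75, Colec12, Icam1, Cxcl16, Lrp1 and Scarb2, named below, which also overlap genes on the opposite strand.

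Marco (ENSMUSG00000026390, chr1:120474538-120505024, minus strand) was the member called higher. It read 408, 746 and 512 in floxed controls and 363, 590.3 and 632 in Cre controls. Knockouts read 1021, 867 and 919, above every control. The mean rose from 542 ± 144 to 936 ± 78.5, 1.73-fold, with a log2 fold change of 0.83 (SE 0.206, limma adjusted p = 0.00965), 0.79 against floxed controls (adjusted p = 0.0268) and 0.86 against Cre controls (adjusted p = 0.0190). The call against floxed controls was lost without floxed control 1 or 3 or any knockout library, and that against Cre controls without Cre control 1, knockout 1 or knockout 3 (adjusted p from 0.0504 to 0.0791 over these). Library 1 was the lowest for Marco in each control genotype and the highest among knockouts. Leaving out all libraries numbered 1, the log2 fold change against both controls was 0.54 (adjusted p = 0.0126).

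Msr1, the other class A scavenger receptor gene (ENSMUSG00000025044, chr8:39581685-39642673, minus strand), read 41.9, 58.6 and 38.4 in floxed controls, 42.2, 67.9 and 63.1 in Cre controls and 71.3, 63.6 and 74.9 in knockouts. The lowest knockout library lay within the range of Cre controls and above all floxed controls. The mean was 52.0 ± 12.7 in controls and 69.9 ± 5.81 in knockouts, a log2 difference of 0.45 (SE 0.163) that just missed the threshold against both controls (limma adjusted p = 0.0502, 95% interval 0.09 to 0.82). It was called against floxed controls (0.61, adjusted p = 0.0317), a call lost without floxed control 1 or 3 or any knockout library (adjusted p from 0.0510 to 0.1004), and not against Cre controls (0.30, adjusted p = 0.257). Against both controls together it passed under 8 of the 18 alternatives run, such as DESeq2 (adjusted p = 0.0205).

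Mrc1 (ENSMUSG00000026712, chr2:14229392-14332057, plus strand) read 1651, 2115 and 2103 in floxed controls, 1964, 1931 and 2212 in Cre controls and 1955, 2062 and 2302 in knockouts, with the genotypes overlapping. The means were 1996 ± 198 and 2106 ± 177, a log2 difference of 0.08 (SE 0.101, limma adjusted p = 0.565) with a 95% interval of -0.15 to 0.31. Olr1 (ENSMUSG00000030162, chr6:129485244-129507165, minus strand) read 383, 404 and 439.7 in floxed controls, 453, 449 and 519.8 in Cre controls and 453, 474 and 500.1 in knockouts. All knockout libraries lay above all floxed controls and among the Cre controls. The log2 difference was 0.11 against both controls (SE 0.0683, limma adjusted p = 0.220, 95% interval -0.04 to 0.26), 0.22 against floxed controls (adjusted p = 0.0561) and 0.01 against Cre controls (adjusted p = 0.956). Against floxed controls Olr1 passed under 4 of the alternatives run, such as DESeq2 (adjusted p = 0.0317). Mrc1 contains the unmeasured microRNA gene Mir511 on the same strand.

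Against each control alone, the counts were alike: 6 of the 9 genes were called against floxed controls, 2 higher and 4 lower (34.3% of all genes were called), and 5 against Cre controls, 1 higher and 4 lower (34.0% of all genes). These comparisons share the knockout libraries. Clec7a, Clec4n, Clec4e and Marco were called against each. Between the controls, limma called 0 of the 9 genes. At an unadjusted p under 0.05 there were 2, Clec7a and Olr1, both higher in Cre controls, and edgeR and DESeq2 each called 0. Over the whole table, 0.167% of genes (20) were called between the controls, 0.0667% higher and 0.1% lower in Cre controls.

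**Figure D2:**
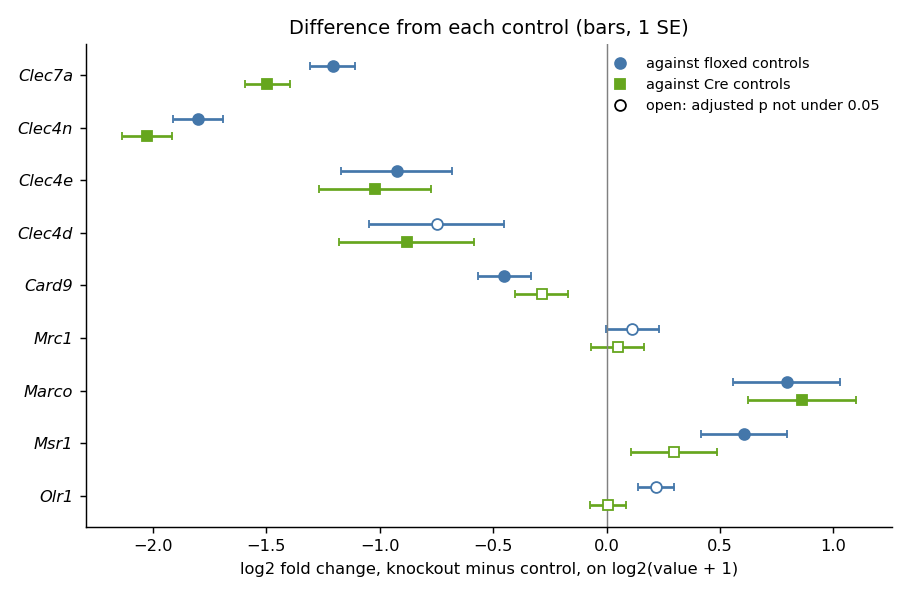
Log2 fold change of each gene in the knockout against floxed controls (blue circles) and against Cre controls (green squares), with 1 SE from limma; filled symbols had an adjusted p under 0.05. The lectins and Card9 lie left of 0 and Marco right of 0 against either control, while Card9, Clec4d and Msr1 were called against only 1 of them.

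Divided by the merged exon length of each gene, levels can be set in order (normalized reads per kilobase, means). In controls the order was Clec7a (536), Clec4n (362), Mrc1 (313), Marco (281), Olr1 (124), Card9 (36.6), Clec4d (36.4), Clec4e (25.7) and Msr1 (8.20). The ranges over the 6 controls overlapped between Clec4n and Mrc1, Mrc1 and Marco, Card9 and Clec4d, and Clec4d and Clec4e, so those neighbours are not ordered beyond their spread. In knockouts the order was Marco (486), Mrc1 (331), Clec7a (209), Olr1 (133), Clec4n (95), Card9 (28), Clec4d (19.9), Clec4e (12.6) and Msr1 (11), and no neighbours overlapped over the 3 pools. Clec7a and Clec4n held the first places in controls, and Marco and Mrc1 in knockouts. Merged exons count all isoforms, so a gene expressed mainly as a short isoform is understated.

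The rest of the signalling route was compared from a list of 35 genes, all measured, which does not include Card9. Against both controls, 14 were lower, 3 higher and 18 were not called (over all genes, 20.2% were lower and 19.7% higher), and the median log2 difference was -0.17. The exchange factor gene Vav1 fell from 196 to 125, the kinase gene Fyn from 46.6 to 30.7 and the phosphatase gene Ptpn6 from 447 to 324 normalized reads. Nfatc2, a transcription factor gene, rose from 3.52 to 8.92. Syk itself was at 624 ± 29.8 in controls and 562 ± 6.01 in knockouts, with all knockout libraries under all controls, and did not pass (log2 difference -0.15, adjusted p = 0.0582). The adaptor genes Tyrobp (672 and 585) and Pik3ap1 (689 and 724) did not pass. Nor did the direct partners in the route, which were picked after their values were seen: the gamma chain gene Fcer1g (457 and 406, adjusted p = 0.0818), Bcl10 (49.6 and 45.6, adjusted p = 0.306) and Malt1 (67.3 and 59.8, adjusted p = 0.289). Syk and Fcer1g passed under DESeq2 (adjusted p = 0.0144 and 0.0386).

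Genes of the response downstream of these receptors were taken from a list of 26, of which 21 were measured. Against both controls 6 were lower, 2 higher and 13 were not called (over all genes, 20.2% were lower and 19.7% higher). The median log2 difference was -0.33, but its sign turned with the control, at -0.94 against floxed and 0.08 against Cre controls, with 6 lower and 2 higher against each. The cytokine gene Tnf read 41.9, 32.3 and 29.6 in floxed controls, 28.9, 40.03 and 25.9 in Cre controls and 11.8, 6.89 and 7.88 in knockouts. Its mean fell from 33.1 ± 6.43 to 8.87 ± 2.62 (log2 difference -1.80, limma adjusted p = 4.06e-05). The chemokine gene Ccl17 fell from 15.3 to 2.09, Il12b, a cytokine subunit gene, from 5.46 to 0.595, and the transcription factor gene Egr2 from 89.1 to 51.8. Ccl17 and Ccl22 are also listed as dendritic cell markers, so the counts of those lists are not separate. The caspase gene Casp8 rose from 130.1 to 168. Il1b was not called: it read 387, 136 and 208 in the libraries numbered 1 and 26.5 to 98.2 in the others. Without the libraries numbered 1 it was lower in knockouts (log2 difference -0.80, adjusted p = 0.000190), and the count over the list became 10 lower and 2 higher. Over all genes that fit called 2195 lower and 2069 higher. Mice were untreated, so these are levels without a stimulus.

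Of 40 other C-type lectin genes listed, 25 were measured, of which 14 were lower, 2 higher and 9 not called (over all genes, 20.2% were lower and 19.7% higher), and the median log2 difference was -0.48. Clec4a2, which encodes an inhibitory receptor of the dectin-2 cluster (DCIR), read 91.5 to 107 in controls and 39.2 to 43.8 in knockouts (log2 difference -1.20, limma adjusted p = 4.12e-07). Clec5a, which encodes a receptor that signals through the adaptor encoded by Tyrobp, fell from 80.7 to 48.2, and Klrb1b fell from 18.5 to 6.43. Thbd, which encodes thrombomodulin, a lectin-domain receptor of the clotting system, was the listed gene with the largest rise, from 35.5 ± 4.21 to 123 ± 15.2 (log2 difference 1.76, limma adjusted p = 3.34e-07). The uptake receptor gene Ly75 (593 and 652), Clec2d (53.0 and 68.0) and the collectin gene Colec12 (48.4 and 53.2) did not pass. Genes of the Clec4a and Klrb1 families have close copies, and RSEM divides reads between copies, so their values are uncertain.

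Other scavenger receptor genes split. Of 21 listed, 12 were measured, with 5 lower, 2 higher and 5 not called (over all genes, 20.2% were lower and 19.7% higher), and the median log2 difference was -0.17. Icam1, an adhesion molecule gene that was put on this list though it is not a classical scavenger receptor, fell from 151 ± 21.5 to 58.4 ± 3.13 (log2 difference -1.34, limma adjusted p = 1.10e-05). Cxcl16, whose product is both a chemokine and a receptor for oxidized lipoprotein, fell from 32.4 to 9.17, and Scarb1, which encodes a lipoprotein receptor, from 224 to 172. Lrp1, an endocytic receptor gene, rose from 2128 to 3425, with knockout 1 (2241) inside the control range and the call lost without knockout 2 or 3 (adjusted p = 0.117 and 0.128). Cd68 (889 and 803), Scarb2 (334 and 354) and Cd14 (105 and 80.6) did not pass. The count of called genes fell from 7 to 4 without knockout 1, to 3 without knockout 2 and to 3 without knockout 3. Over all genes the count fell from 4781 to 3891, 3748 and 3648 in the same fits.

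**Figure D3:**
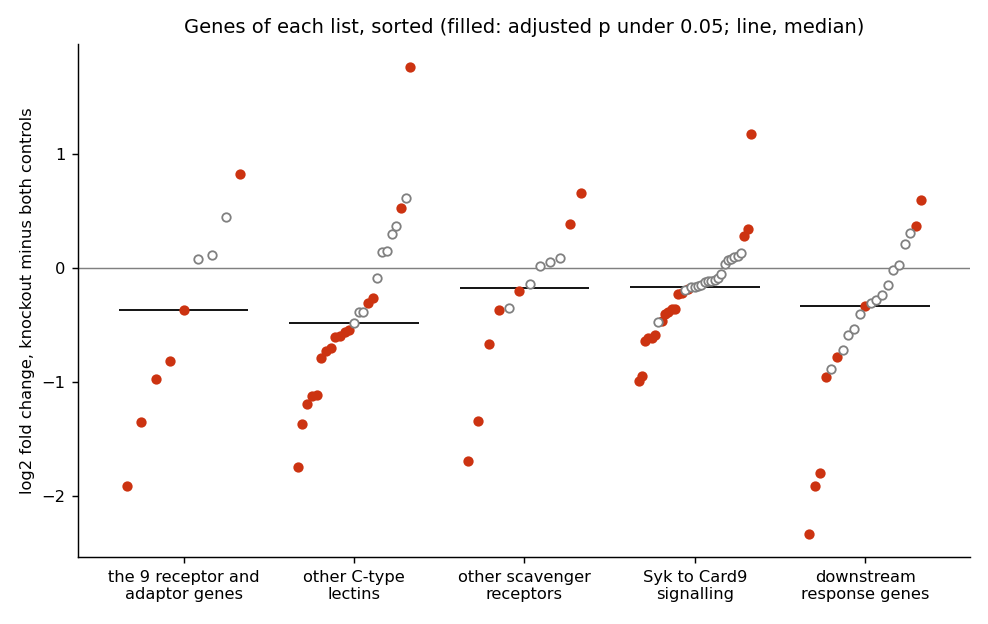
Log2 fold change of the knockout against both controls for each measured gene of the 9 receptor and adaptor genes and of 4 lists, sorted within a list; red points had an adjusted p under 0.05 and the line is the median. Each median lies under 0, at -0.37, -0.48, -0.17, -0.17 and -0.33 from left to right, and each list holds genes on both sides; the last median is 0.08 against Cre controls alone.

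Markers of other cells were measured in the same libraries. Of 20 dendritic cell markers, 19 were measured, and 16 were lower in the knockout, 0 higher (limma; 0 at an unadjusted p under 0.05, and 0 by edgeR and DESeq2) and 3 not called, beside 20.2% lower and 19.7% higher over all genes. Ccr7, a homing receptor gene of migratory dendritic cells, read 42.4, 19.1 and 25.4 in floxed controls, 26.0, 69.8 and 61.6 in Cre controls and 3.30, 4.90 and 4.72 in knockouts. Fscn1, another gene of these cells, fell from 43.6 ± 21.4 to 4.43 ± 1.04. Batf3, a transcription factor gene of type 1 dendritic cells, fell from 5.84 to 2.34, and the lectin gene Clec9a, which is also on the lectin list, from 2.81 to 0.656. Cd209a, Cd207 and Mgl2 are likewise on both of these lists, and Ccl17 and Ccl22 are also on the list of response genes. The counts of these lists are thus not separate. Clec9a overlaps Clec1b on the same strand, so reads of the pair are uncertain. Between the controls limma did not call Clec9a, but DESeq2 called it higher in Cre controls (log2 difference 1.26, adjusted p = 0.0359). The summed level of the list was 2551 to 2591 in floxed controls, 2642 to 2777 in Cre controls and 2337 to 2477 in knockouts, most of it from Sirpa (2062 and 2066), which alveolar macrophages express too. Dendritic cells are known to carry Clec7a and Clec4n, and the part of dendritic cell RNA in the levels of the lectins was not tested. In controls Clec7a and Clec4n stood at 1415 and 514 normalized reads, Ccr7 at 40.7 and Fscn1 at 43.6. These levels are not corrected for gene length, so they cannot be compared between genes, and they do not measure the dendritic cell part.

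Markers of further cell types were called in both directions, to be read beside the same 20.2% lower and 19.7% higher over all genes. Of 12 monocyte markers 3 were higher and 4 lower, with sums of 388 to 500 (controls) and 410 to 435 (knockouts). Their log2 differences ran from -1.93 to 5.09, so the like sums do not stand for unchanged markers. The median was -0.76 against floxed controls (2 higher and 5 lower, over all genes 17.5% and 16.8%). Against Cre controls it was 0.66 (3 higher and 2 lower, over all genes 16.3% and 17.7%). Of 8 measured interstitial macrophage markers (13 listed) 2 were higher and 4 lower, and the sum was 137 to 289 in floxed controls, 85.1 to 153 in Cre controls and 648 to 864 in knockouts. The log2 differences of the 8 ran from -0.79 to 2.98 with a median of -0.29, so the higher sum does not stand for a rise of most of them. The counts differed with the control: against floxed controls 1 was higher and 4 lower, and against Cre controls 2 were higher and 0 lower (limma; 0 lower at an unadjusted p under 0.05, and 0 by edgeR and DESeq2). Between the controls none of the 8 was called, and all 8 were lower in Cre controls at an unadjusted p under 0.05 (edgeR called 0 and DESeq2 1). The count called against both controls fell to 2 without knockout 3 and to 3 without floxed control 1, floxed control 3 or knockout 2. Over all genes these fits called 3648, 4822, 4974 and 3748, beside 4781 with all libraries. Of 7 measured neutrophil markers (10 listed) 1 was called, Mmp8, which rose from 59.1 to 85.1, a call lost without floxed control 2 or 3, Cre control 2 or 3, or knockout 1 or 2 (adjusted p from 0.0763 to 0.203). Of 12 measured epithelial markers (15 listed) 2 were higher and 2 lower, with sums of 257 to 678 in controls and 359 to 451 in knockouts. Of 13 lymphocyte markers 3 were measured, summing to 188 to 254 in controls and 169 to 195 in knockouts. No list had every measured marker at 0; the markers at 0 in a library were Ly6c2 and Klrb1c, each in Cre control 2. Listed markers outside the table are not analysed here. The part of these cells in the levels above was not tested.

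Of the 9 genes, 5 lie on the chromosome that carries Vhl. Clec4n, Clec4d and Clec4e sit side by side at 9.61 to 9.66 Mb from it, and Clec7a and Olr1 at 15.8 and 15.9 Mb, within clusters of lectin-like genes. Of 24 further genes listed for these clusters, some of them on the lectin list above, 17 were measured, and against both controls 9 were lower and 1 higher (over all genes, 20.2% were lower and 19.7% higher), and the median log2 difference was -0.26. Neighbours differed: Clec7a fell to 39.0% of controls and its neighbour Olr1 was at 108%. Of the 20 genes called between the controls, 11 lie on this chromosome, which holds 4.77% of the table. Clec1b, a platelet and myeloid lectin gene, was at 1.06 ± 0.163 in floxed controls, 17.9 ± 2.72 in Cre controls and 0.872 ± 0.403 in knockouts (log2 difference 3.19 between the controls, limma adjusted p = 2.58e-05). Its call against both controls (log2 difference -1.75) thus rests on the Cre controls, since knockouts and floxed controls overlapped. For Clec7a, Clec4n, Clec4e and Clec4d the knockout also stood lower than the floxed controls, which carry the same floxed alleles, by 1.21, 1.799, 0.93 and 0.75 on the log2 scale (Clec4d not called). Of the 17 further genes, 6 were lower and 1 higher against floxed controls (over all genes, 16.8% and 17.5%). Against Cre controls 8 were lower and 2 higher (over all genes, 17.7% and 16.3%). Whether the place of these genes on the chromosome of Vhl plays a part was not tested.

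**Figure D4:**
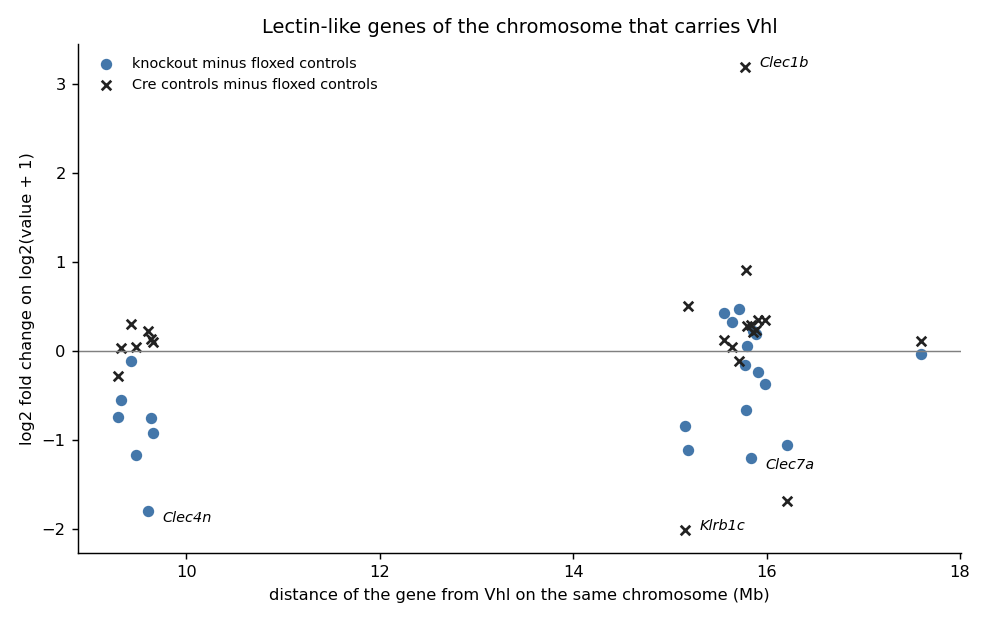
Log2 fold change of genes listed for the lectin-like clusters on the chromosome of Vhl, not all of which encode lectins, against their distance from Vhl (Mb): knockout against floxed controls (blue circles) and Cre controls against floxed controls (black crosses). Clec4n (-1.80) and Clec7a (-1.21) are low in the knockout comparison with crosses at 0.22 and 0.29, while Clec1b (3.19) and Klrb1c (-2.01) stand apart between the controls.

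For each gene, the genes with the most similar profile over the 9 libraries were found by the root mean square (RMS) difference of log2(value + 1) after centring, among genes whose mean reached 5 normalized reads. The nearest to Clec7a were Cd300e (0.121), Fcgr1 (0.128) and Vamp5 (0.130), and the nearest to Clec4n were Cd52 (0.125), Ms4a6c (0.1497) and Fpr2 (0.151). Clec4e was nearest to Relb (0.172), Prdx1 (0.179) and Nrp2 (0.184), and Clec4d to Tspan3 (0.144), Sc5d (0.212) and Hsph1 (0.212). For Marco they were Tnfrsf26 (0.188), Dsel (0.228) and Gpnmb (0.238), and Gpnmb was also the nearest to Msr1 (0.124), ahead of Trim13 (0.132) and Galnt7 (0.171). Card9 was nearest to Gmip (0.0508), Vps9d1 (0.0594) and Parp3 (0.0744). Mrc1 was nearest to Ppfibp1 (0.0367), Phka2 (0.0476) and Diaph2 (0.0592), and Olr1 to Ncoa4 (0.0456), Wipi1 (0.0466) and Sdccag8 (0.0533). Among the 9 genes themselves, the closest pair was Mrc1 and Olr1 (0.0944), and Clec7a and Clec4n stood at 0.304, Clec4e and Clec4d at 0.299 and Marco and Msr1 at 0.273. These are descriptions over 9 libraries from 3 genotypes, and the same libraries enter every profile.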

How the data were processed

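Poly(A) RNA of alveolar macrophages was sequenced as single reads of 61 bases, from RNA with an integrity value over 8 per the labels' protocols. CASAVA 1.8.2, cutadapt 1.3, RSEM 1.2.3 and GRCm38 are named in the submitters' processing notes; the sources used here do not give the annotation, strand setting or later steps. The deposited file of the authors holds scaled signal for 12003 genes by 9 libraries. All values (100%) were whole reads within 0.01 read times a library factor equal to CPM after TMM scaling, with 1 read worth 0.0400 to 0.0565; 3 reads, the most a count of 0 allows, are 0.120 to 0.170 (counting error only). The table had been filtered: each gene has at least 0.962 in at least 3 libraries. No per-sample column was left out (0).

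Values were tested as log2(value + 1), without a filter, with limma 3.58.1 (R 4.3.3; trend, two-sided, Benjamini-Hochberg), 1 mean per genotype over all 9 libraries. This test for scaled values replaced the edgeR test planned for raw counts. Alternatives used other pseudocounts (0.1 and 0.5), a mean of at least 1, other scaling, edgeR 4.0.16 and DESeq2 1.42.0 on the recovered reads, a replicate block, the compared groups only, and libraries left out. The fit was tested on simulated data. P-values measure the spread between pools. Symbols came from GENCODE M21 (GRCm38), which names 11943 identifiers and leaves 60 without one, and promoters from RefSeq (GRCm38.p6).

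The 9 genes and the lists were chosen with earlier results of these data known, so list counts carry no test and stand beside the share of all genes called. Names from a list were drawn from up to 5 called genes, smallest adjusted p first, and up to 3 uncalled genes, highest mean first. Not all of these genes are named in the text, so some were passed over. Further names are marked as picked after their values were seen, except those given only to show that lists share genes. A called gene of the signalling list is not reported here.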

Additional observations from a re-analysis of the deposited data

Results flagged for a closer look

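Among the lectin-like genes, 3 differed between the control genotypes, so their knockout difference depends on which control it is taken against. Clec1b was higher in Cre controls (21.0, 16.5 and 16.1 normalized reads) than in floxed controls (1.25, 0.973 and 0.962), a log2 difference of 3.19 (limma adjusted p = 2.58e-05), with knockouts at 0.729, 1.33 and 0.560. It overlaps Clec9a on the same strand, so reads of the pair are uncertain. Cd209c, a lectin gene of the DC-SIGN family, was lower in Cre controls (0.278, 0.628 and 0.509) than in floxed controls (5.16, 3.63 and 10.0), a log2 difference of -2.22 (limma adjusted p = 0.00900), and knockouts read 3.22, 3.83 and 4.52. The call was lost in the fit of the compared groups only (adjusted p = 0.0820) and without Cre control 3 (adjusted p = 0.0583). Klrb1c, which encodes the natural killer cell antigen NK1.1, was lower in Cre controls (0.185, 0 and 0.1696) than in floxed controls (4.51, 2.97 and 3.13), a log2 difference of -2.01 (limma adjusted p = 0.00189), and knockouts read 2.02, 1.17 and 1.40. Of these, Clec1b and Klrb1c lie 15.8 and 15.2 Mb from Vhl, and Cd209c lies on chromosome 8. None of the 9 receptor and adaptor genes had a control library that stood apart from the other 5 controls (Dixon's gap test, 95% level).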

How the results depend on the processing

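Clec7a and Clec4n stayed called against both controls, and against each, in every alternative run. Clec4e and Marco stayed called against both controls in all 18 alternatives, with adjusted p up to 0.0258 and 0.0413. Without 1 library, the counts ranged from 4 to 6 of the 9 genes called against both controls, from 3 to 7 against floxed controls and from 3 to 6 against Cre controls. Over all 12003 genes the same fits called 3648 to 4974, 3098 to 4101 and 3052 to 4436. The 20 genes called between the controls became 74 with DESeq2, 11 with the compared groups only, 147 when all libraries numbered 1 were left out, and 13 to 31 without 1 library, and the cause was not tested. Without a scaling factor, 1635 genes were higher and 2540 lower against floxed controls, in place of 2099 and 2013, and the median over all genes shifted to -0.07 at most. Over the 9 genes and all comparisons, 617 log2 values kept their direction and side of the threshold, 27 lost the call, 17 gained it and 14 reversed. Depth limited Klrb1c, with 0 reads in Cre control 2, while each of the 9 genes had at least 539 reads in every library.

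All reversals were of uncalled log2 values near 0, and their causes were not tested. Olr1 against Cre controls was -0.021 without a scaling factor and ranged from -0.030 to 0.075 without 1 library. Mrc1 ranged from -0.0051 to 0.17 against floxed controls, from -0.017 to 0.11 against Cre controls and from -0.054 to 0.12 between the controls, where it was -0.029 without the libraries numbered 1. Between the controls and without 1 library, Marco ranged from -0.27 to 0.18, Clec4e from -0.16 to 0.39 and Clec4d from -0.16 to 0.40.

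The replicate numbers were not taken to pair the libraries, since the labels do not say that pools with the same number share anything. Of 9 same-numbered pairs, 6 had correlated deviations over 0.1 (range -0.0934 to 0.524), and 3 of 9 libraries correlated best with their own number in each other group. The pairs numbered 1 stood at 0.202, 0.323 and 0.524, and every pair of a library 1 with a differently numbered library was negative. All differently numbered pairs ranged from -0.443 to 0.382. These values do not settle whether the numbers pair the libraries, and what the libraries numbered 1 share was not tested. A fit with the replicate number as a block called 4898 genes against both controls, 4282 against floxed and 4192 against Cre controls, 71 between the controls, and 7, 7 and 5 of the 9 genes. With the block, Msr1 passed against both controls (adjusted p = 0.0380) and Olr1 against floxed controls (0.0175), as did, against both controls, Il1b (-0.58, adjusted p = 0.00678), Clec2d (0.00922), Cd14 (0.0174) and Malt1 (0.0396), and 4 neutrophil markers were called instead of 1.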
